A study of Mus musculus with 6 samples.

Results

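The genes examined here encode 2 groups of splicing regulators, the SR proteins and the heterogeneous nuclear ribonucleoproteins (hnRNPs), in mouse liver. They were chosen by symbol: every row of the gene count table named Srsf followed by a number, or starting with Hnrnp, without the 3 rows marked as pseudogenes (-ps). This gave 31 of 56674 rows, 11 SR genes and 20 hnRNP genes. All 31 had counts, and 30 passed the filter on low counts and were tested. The gene left out of the test was Srsf12, which had 5 counts in normal chow library 3, 4 in PE-MP library 1 and 0 in the other libraries.

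Male C57BL/6 mice ate normal chow, or chow with polyethylene microplastic (PE-MP), over 71 weeks of rearing, and their liver RNA was sequenced after poly(A) selection, with 3 libraries per chow. The labels give no dose or particle size of PE-MP, no batch, and no statement that each library came from a separate animal. The p-values therefore reflect only how far these libraries vary, and that variation may be technical. The study asked whether long exposure to the plastic alters hepatic gene expression.

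SR proteins carry RNA-binding domains and a tail rich in arginine and serine, and most bind exons and help the splicing machinery to recognise them. The kinases of the SRPK and CLK families phosphorylate that tail, and this controls where SR proteins lie in the nucleus and how they act. hnRNPs coat newly made transcripts, and many of them block the use of nearby splice sites, so that the balance of both groups sets which exons are kept. Many genes of both groups limit their own output by splicing in a premature stop or by keeping an intron, forms that nonsense-mediated decay or the nucleus removes. Counts per gene, as used here, do not tell such forms from the coding mRNA.

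Total counts per library ran from 68357478 to 112566641. The 13 mitochondrially encoded mRNAs took 14.2% to 15.1% of all counts in the normal chow libraries and 8.63% to 9.19% in the PE-MP libraries, and normal chow library 2 stood apart with 11.2% of its counts on the ribosomal RNA gene Rn18s-rs5, against 0.334% to 5.98% in the other libraries. Levels are counts-per-million (CPM), with library totals scaled by edgeR's TMM factors, fold changes are log2 ratios with PE-MP chow over normal chow, and tests are edgeR's quasi-likelihood test with Benjamini-Hochberg adjustment over 18043 genes and a threshold of 0.05. Hepatocyte markers were all detected, with Alb at a mean of 53140 CPM in normal chow and 53750 CPM in PE-MP chow. In bulk liver RNA, fewer cells of a type and less RNA per cell cannot be told apart.

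No SR or hnRNP gene passed the threshold, 0 of 30 tested, where 0.00554% of all tested genes (1 of 18043) did. At an unadjusted p under 0.05, 7 of the 30 were higher under PE-MP chow and 1 was lower, with 9.09% of all tested genes higher and 8.80% lower at the same p. The chows did not overlap for 13 of the 30. Of these, 8 (26.7%) were higher in every PE-MP library, beside 14.2% of all tested genes, and 5 (16.7%) were lower in every PE-MP library, beside 11.8%. With upper-quartile factors the split was 10 higher and 3 lower, beside 2786 and 1912 of all tested genes, in place of 2558 and 2125. The fold changes ran from -0.79 for Hnrnpu to 0.95 for Hnrnph1, with a median of 0.215 beside 0.0182 for all tested genes. Above 0 were 19 of 30, beside 51.7% of all tested genes. The median was 0.292 for 10 SR genes, 8 of them above 0, and 0.074 for 20 hnRNP genes, 11 of them above 0. Whether the families differ was not tested. Single libraries moved these medians: that of the SR genes was 0.543 without normal chow library 2, that of the hnRNP genes -0.009 without PE-MP library 2, and that of all 30 genes 0.125 without normal chow library 1 and 0.133 without PE-MP library 1.

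**Figure D1:**
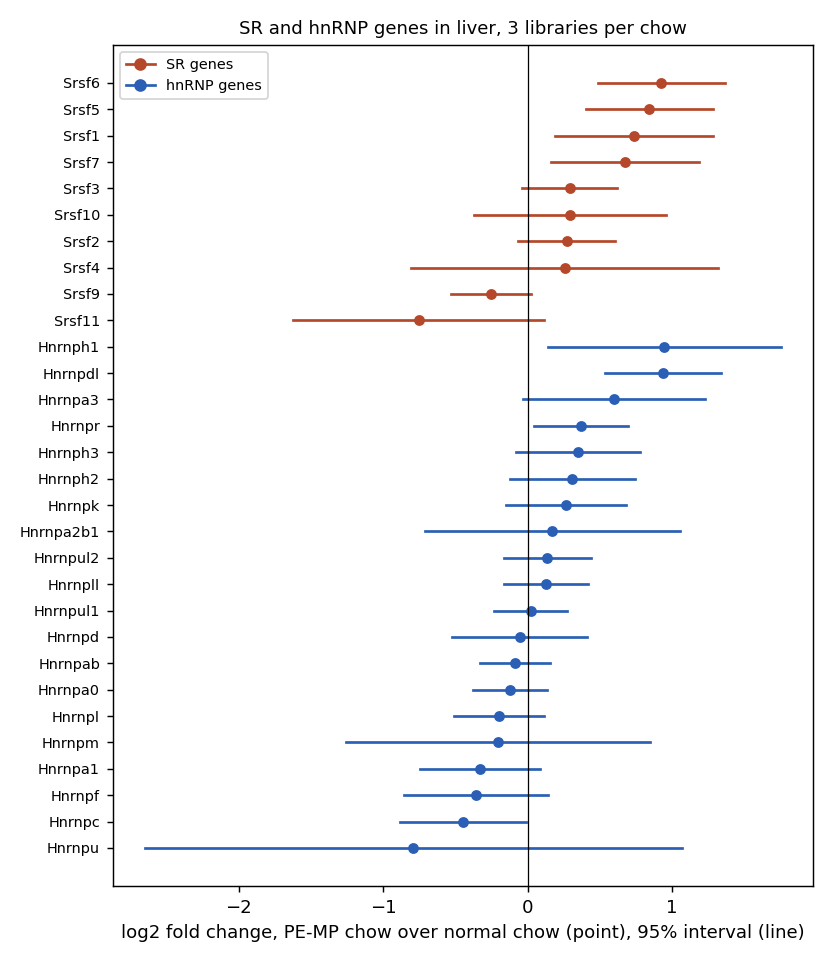
Log2 fold change of PE-MP chow over normal chow for the 30 tested SR (red) and hnRNP (blue) genes, with 95% intervals as lines. The intervals of Srsf6, Srsf5, Srsf1, Srsf7, Hnrnph1, Hnrnpdl and Hnrnpr lie above 0 and that of Hnrnpc below 0, all before adjustment for the number of genes tested.

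**Figure D2:**
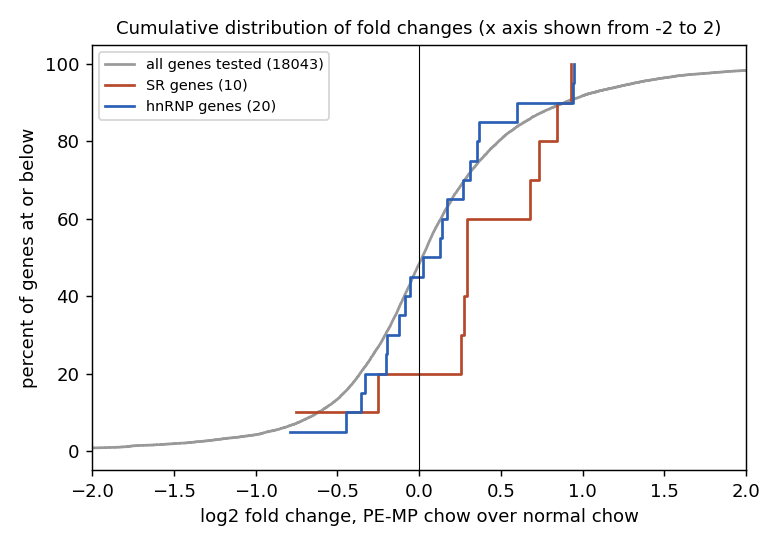
Percent of genes (vertical axis) at or below a log2 fold change (horizontal axis) for all 18043 tested genes (grey), 10 SR genes (red) and 20 hnRNP genes (blue). The hnRNP steps run close to the grey curve, and the SR steps lie to its right between log2 fold changes of -0.25 and 0.84.

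The result depended on the tool and on 1 library. DESeq2 called 3 of the 30 higher and 0 lower, beside 2.65% of all genes with an adjusted p higher and 2.57% lower; the 3 were Hnrnpdl, Srsf6 and Srsf5, with DESeq2 adjusted p of 0.000886, 0.00216 and 0.00824. Without normal chow library 2, edgeR called 7 higher and 0 lower, beside 2.38% of all tested genes higher and 3.27% lower. Those 7 were Srsf5, Srsf6, Srsf1, Srsf10, Hnrnpdl, Hnrnph1 and Hnrnpa3, with edgeR adjusted p from 0.0325 to 0.0448. When a trend of fold change on exon length and GC content was taken out over all genes, the median of the 30 moved from 0.215 to -0.016. The SR median was then 0.235 and the hnRNP median -0.093, with all genes at -0.078. Values of single genes after removal, given below, stand beside that -0.078 and not beside 0. The transcripts of the 30 genes had a median GC content of 43.3%, against 49.7% for the protein-coding genes tested.

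Among the SR genes, Srsf6, Srsf5, Srsf1 and Srsf7 had the smallest p on the higher side, and each was higher in all 3 PE-MP libraries than in any normal chow library. Srsf6 stood at 47.5, 29.4 and 36.4 CPM in normal chow libraries 1, 2 and 3, and at 75.1, 67.8 and 72.3 CPM in the PE-MP libraries. The PE-MP libraries lay close together and well above the highest normal chow library. The means were 37.7 ± 9.10 and 71.7 ± 3.66 CPM (SD, n = 3 per chow), so that PE-MP chow was 1.90-fold higher (log2 fold change 0.93 ± 0.18 SE, edgeR adjusted p = 0.128). After removal of the length and GC trend it was 0.70.

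Srsf5, one of the classical SR proteins, had the highest level per kilobase of the SR genes in both chows. It stood at 122, 168 and 106 CPM in normal chow libraries 1, 2 and 3 and at 229, 229 and 252 CPM in the PE-MP libraries. The groups did not overlap, and normal chow library 2 was the nearest to the PE-MP libraries. Its log2 fold change was 0.84 ± 0.18 (SE; edgeR adjusted p = 0.135), and 0.56 without the length and GC trend.

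Srsf1, the founding member of the family, was measured at 23.2, 42.6 and 28.8 CPM under normal chow and at 53.0, 47.1 and 57.2 CPM under PE-MP chow. Here too normal chow library 2 came closest to the PE-MP libraries, which were all higher. The log2 fold change was 0.74 ± 0.23 (SE; edgeR adjusted p = 0.192). Without normal chow library 2 it was 1.01, and after removal of the length and GC trend it was 0.44.

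Srsf7, an SR protein that also carries a zinc knuckle, stood at 7.97, 9.45 and 5.6 CPM under normal chow. Under PE-MP chow it was at 11.9, 11.2 and 13.6 CPM, again with no overlap. The log2 fold change was 0.68 ± 0.22 (SE; edgeR adjusted p = 0.198), and 0.44 after removal of the length and GC trend.

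**Figure D3:**
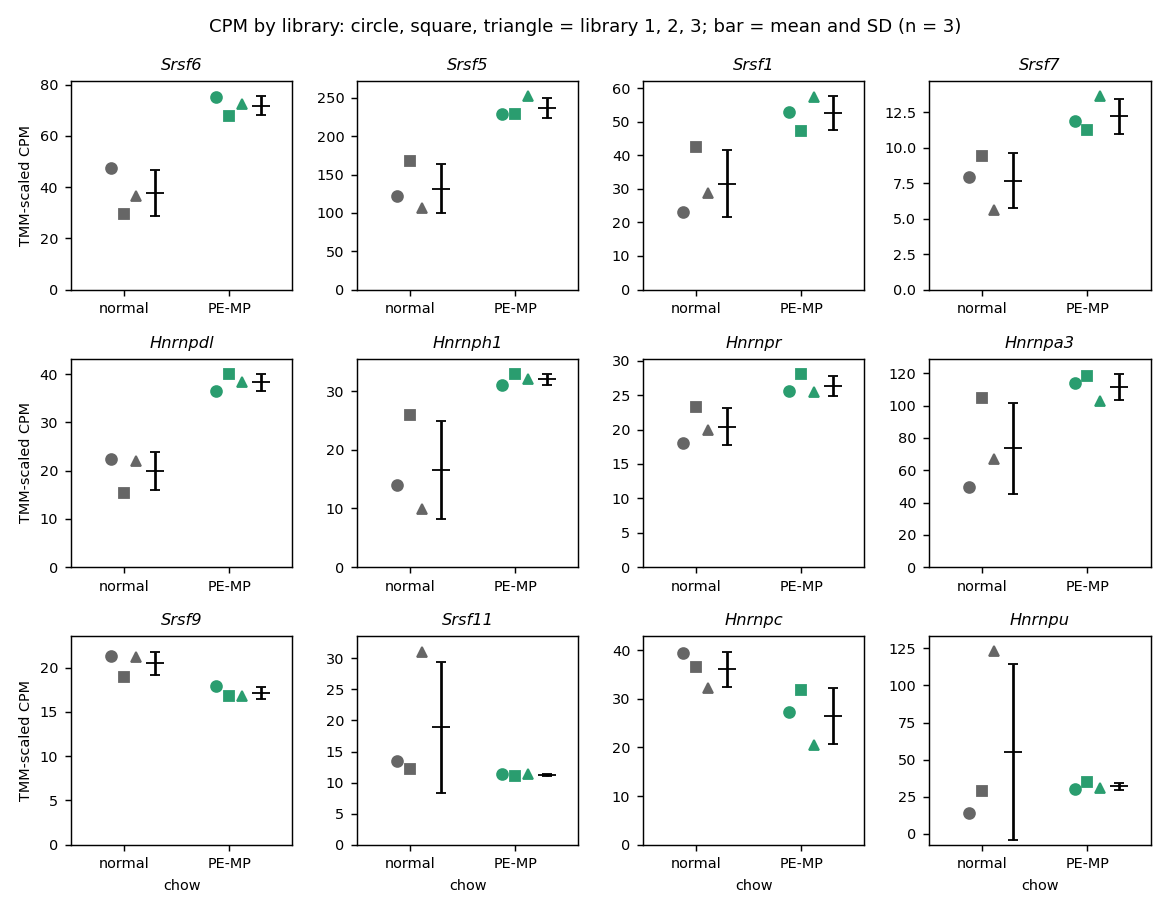
TMM-scaled CPM (vertical axis) of 12 SR and hnRNP genes in each library, normal chow in grey and PE-MP chow in green, with mean and SD (n = 3) as bars. The PE-MP libraries of Srsf6 lie at 67.8 to 75.1 CPM, above the highest normal chow library at 47.5, and normal chow library 3 stands alone at 123 CPM for Hnrnpu and 31.1 CPM for Srsf11.

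Of the other SR genes, Srsf3, Srsf2, Srsf10 and Srsf4 had fold changes above 0 (0.29, 0.27, 0.29 and 0.26) with overlapping chows. Srsf3, a small SR protein that also acts in mRNA export, went from a mean of 31.2 CPM under normal chow to 38.2 CPM under PE-MP chow, and had a fold change of -0.03 after removal of the length and GC trend. Srsf10, which can repress splicing when dephosphorylated, was uneven under normal chow, at 14.3, 29.3 and 15.6 CPM, and even under PE-MP chow, at 25.3, 23.0 and 24.2 CPM. Without normal chow library 2 its log2 fold change was 0.69. After removal of the length and GC trend it was 0.00, beside a median of -0.078 for all genes. Srsf4 spread widely in both chows, from 9.60 to 31.2 CPM under normal chow and from 16.8 to 30.4 CPM under PE-MP chow.

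Srsf9 and Srsf11 were lower in every PE-MP library. Srsf9 was measured at 21.3, 18.9 and 21.2 CPM under normal chow and at 18.0, 16.8 and 16.8 CPM under PE-MP chow. The gap between the chows was small, and so was the spread: the log2 fold change was -0.25 ± 0.12 (SE; edgeR adjusted p = 0.314). Srsf11 stood at 13.5, 12.1 and 31.1 CPM under normal chow and at 11.3, 11.1 and 11.3 CPM under PE-MP chow. Normal chow library 3 stood far above the rest, and without it the log2 fold change was -0.19 in place of -0.75 ± 0.36 (SE; edgeR adjusted p = 0.329).

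Added together, the 10 tested SR genes took 344, 385 and 334 CPM in normal chow libraries 1, 2 and 3 and 533, 506 and 552 CPM in the PE-MP libraries. The sums did not overlap, and Srsf5 alone made up 131.8 of a mean of 354 CPM under normal chow and 236.6 of 530 CPM under PE-MP chow. The 20 hnRNP genes summed to 896, 1090 and 1080 CPM under normal chow and to 1090, 1150 and 990 CPM under PE-MP chow, and these overlapped.

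**Figure D4:**
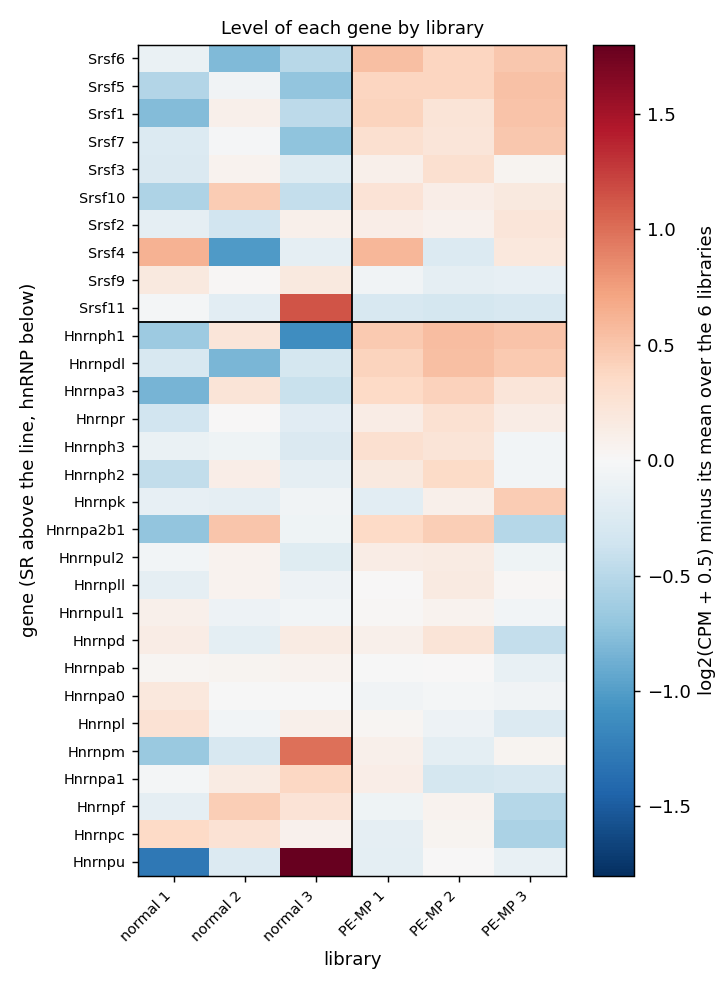
Level of each of the 30 genes (rows) in each library (columns), as log2(CPM + 0.5) minus its mean over the 6 libraries, from blue (lower) to red (higher). The top SR rows and Hnrnph1, Hnrnpdl and Hnrnpa3 are red in all PE-MP columns, and Hnrnpu, Hnrnpm and Srsf11 are darkest in normal chow library 3.

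Among the hnRNP genes, Hnrnpdl had the smallest p. It encodes a paralog of hnRNP D that binds AU-rich RNA. Its levels were 22.5, 15.4 and 22.0 CPM in normal chow libraries 1, 2 and 3 and 36.5, 40.0 and 38.3 CPM in the PE-MP libraries. All PE-MP libraries were above all normal chow libraries, a 1.92-fold difference (log2 fold change 0.94 ± 0.17 SE, edgeR adjusted p = 0.124), and the fold change was 0.80 without the length and GC trend. Its relative Hnrnpd, which encodes the AU-rich element binding protein AUF1, differed little between the chows (log2 fold change -0.05 ± 0.20 SE, edgeR adjusted p = 0.908), with levels of 29.2 to 36.5 CPM under normal chow and 24.4 to 38.8 CPM under PE-MP chow.

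The H and F proteins bind runs of G. Hnrnph1 stood at 13.9, 26.0 and 9.96 CPM under normal chow and at 31.0, 32.9 and 32.0 CPM under PE-MP chow. The PE-MP libraries agreed within a 1.06-fold range, whereas the normal chow libraries covered a 2.61-fold range. The log2 fold change was 0.95 ± 0.34 (SE; edgeR adjusted p = 0.226), 1.42 without normal chow library 2 and 0.56 after removal of the length and GC trend. Hnrnph2 and Hnrnph3 had fold changes of 0.31 and 0.35, and the chows did not overlap for Hnrnph3, at 3.44 to 3.98 CPM and 4.04 to 5.26 CPM. Hnrnpf went the other way, from 50.8, 77.4 and 68.0 CPM to 54.0, 59.4 and 39.9 CPM, with overlapping chows (log2 fold change -0.36 ± 0.21; edgeR adjusted p = 0.413).

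The A and B proteins are the classical core hnRNPs and often silence exons. Hnrnpa3 was measured at 49.6, 105 and 67.0 CPM under normal chow and at 114, 118 and 103 CPM under PE-MP chow. Normal chow library 2 lay within the PE-MP range and the other normal chow libraries well below it; the log2 fold change was 0.60 ± 0.27 (SE; edgeR adjusted p = 0.30), 0.93 without that library, 0.38 without normal chow library 1 and 0.29 after removal of the length and GC trend. Hnrnpa1 was 22.8, 25.9 and 30.2 CPM under normal chow and 25.2, 18.6 and 19.1 CPM under PE-MP chow (log2 fold change -0.33 ± 0.18; edgeR adjusted p = 0.371). Hnrnpa2b1, given because its mean CPM over all libraries was the highest of the hnRNP genes before scaling by length, varied within both chows, at 71.6, 166 and 111 CPM and at 151, 159 and 82.4 CPM. Hnrnpa0 was steady, as was Hnrnpab, which despite its symbol is not one of these core proteins. Each was slightly lower in every PE-MP library, with log2 fold changes of -0.12 and -0.09 whose 95% intervals ran from -0.38 to 0.13 and from -0.33 to 0.15.

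Hnrnpr, which encodes a relative of hnRNP Q, stood at 18.1, 23.3 and 19.9 CPM under normal chow and at 25.5, 28.1 and 25.5 CPM under PE-MP chow. The chows did not overlap. The log2 fold change was 0.37 ± 0.14 (SE; edgeR adjusted p = 0.237). After removal of the length and GC trend it was 0.00, beside a median of -0.078 for all genes. Hnrnpc, whose product binds uridine tracts of nascent transcripts, was lower in every PE-MP library. Its levels were 39.4, 36.6 and 32.2 CPM under normal chow and 27.2, 31.8 and 20.4 CPM under PE-MP chow, the last far below the others (log2 fold change -0.45 ± 0.18 SE, edgeR adjusted p = 0.272; -0.67 without the length and GC trend). Hnrnpl, which binds CA repeats, stood at 80.6, 65.5 and 71.6 CPM under normal chow and at 69.5, 63.3 and 56.9 CPM under PE-MP chow, with overlap (log2 fold change -0.20 ± 0.13 SE, edgeR adjusted p = 0.460).

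Hnrnpu encodes SAF-A, a protein that binds both chromatin and RNA, and its mean under normal chow rested on 1 library. It stood at 13.9, 28.8 and 123 CPM in normal chow libraries 1, 2 and 3 and at 30.3, 34.6 and 31.1 CPM in the PE-MP libraries. With all libraries the log2 fold change was -0.79 ± 0.76 (SE; edgeR adjusted p = 0.620), and without normal chow library 3 it was 0.59 (edgeR adjusted p = 0.522). Hnrnpm shared this pattern, at 9.55, 12.6 and 31.2 CPM under normal chow and 16.6, 13.7 and 16.1 CPM under PE-MP chow. Its log2 fold change was -0.20, and 0.48 without normal chow library 3. The remaining hnRNP genes had fold changes whose 95% intervals held 0: Hnrnpk (0.27), Hnrnpul2 (0.14), Hnrnpll (0.13) and Hnrnpul1 (0.02), with edgeR adjusted p from 0.459 to 0.933. For Hnrnpul1 the 95% interval ran from -0.23 to 0.27. Hnrnpk, whose product binds poly(C), reached 107 CPM in its highest normal chow library and spread from 97.9 to 154 CPM under PE-MP chow.

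The libraries of normal chow differed more from each other than those of PE-MP chow. The SD of log2(CPM + 0.5) was larger under normal chow for all 10 SR genes and for 14 of 20 hnRNP genes, beside 67.3% of all tested genes. The median SD of the SR genes was 0.351 with normal chow and 0.0776 with PE-MP chow, where all tested genes had 0.229 and 0.153.

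**Figure D5:**
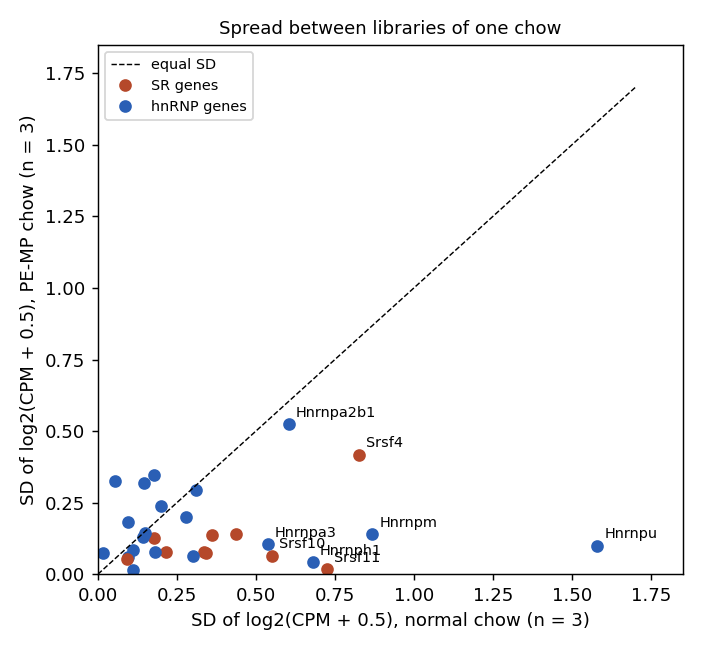
SD of log2(CPM + 0.5) between the 3 libraries under normal chow (horizontal axis) and PE-MP chow (vertical axis), SR genes in red and hnRNP genes in blue, with a dashed line of equal SD. All red points lie below the line, and Hnrnpu lies farthest right at 1.58.

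Levels of different genes were compared per kilobase of annotated exon. Under normal chow Hnrnpab (45.1 ± 0.494 CPM per kb; SD, n = 3) was first and Srsf5 (33.0 ± 7.98) second, and under PE-MP chow Srsf5 (59.3 ± 3.29) was first and Hnrnpab (42.5 ± 2.18) second. Next under normal chow came Hnrnpf (21.5 ± 4.42), Hnrnpa2b1 (17.6 ± 7.20), Hnrnpa0 (16.7 ± 1.33) and Hnrnpk (15.9 ± 0.604), where each overlapped the next within 1 SD. Hnrnpr was the lowest of the 30 in both chows, at 0.920 ± 0.120 and 1.19 ± 0.0663 CPM per kb, and Srsf6 stood at rank 14 in normal chow and rank 8 in PE-MP chow. Exon length was the union of all annotated exons, which lowers genes with long alternative ends such as Hnrnpr (22199 bases).

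Promoter sequence is shown for Srsf6, Srsf5 and Hnrnpdl, the 3 genes with the smallest p. Each is the 250 bases before the first listed RefSeq start, on the gene's strand, in build GRCm38.p6. Capitals mark GC boxes (GGGCGG, either strand) and, in Srsf5 alone of these, ETS cores (CCGGAAG, either strand), one of which overlaps a GC box. The windows are chr2:162931258-162931507 (plus strand) for Srsf6, chr12:80945249-80945498 (plus strand) for Srsf5 and chr5:100039223-100039472 (minus strand) for Hnrnpdl.
Srsf6: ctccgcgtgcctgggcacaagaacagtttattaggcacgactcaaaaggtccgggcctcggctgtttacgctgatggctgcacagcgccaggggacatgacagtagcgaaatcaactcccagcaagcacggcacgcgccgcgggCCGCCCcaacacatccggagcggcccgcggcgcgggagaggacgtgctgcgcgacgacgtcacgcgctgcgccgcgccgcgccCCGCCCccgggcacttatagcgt
Srsf5: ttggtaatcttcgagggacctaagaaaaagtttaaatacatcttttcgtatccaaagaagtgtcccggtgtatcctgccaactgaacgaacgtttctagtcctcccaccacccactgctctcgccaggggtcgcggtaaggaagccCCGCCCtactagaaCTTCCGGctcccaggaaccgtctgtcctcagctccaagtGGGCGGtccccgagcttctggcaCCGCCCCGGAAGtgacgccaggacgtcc
Hnrnpdl: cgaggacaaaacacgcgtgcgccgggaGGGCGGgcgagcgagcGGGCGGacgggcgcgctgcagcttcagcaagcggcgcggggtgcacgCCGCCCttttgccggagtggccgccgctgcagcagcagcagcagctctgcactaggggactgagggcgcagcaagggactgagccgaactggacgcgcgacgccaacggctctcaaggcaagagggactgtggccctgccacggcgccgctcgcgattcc
The Srsf6 window holds 35 CpG dinucleotides, that of Srsf5 17 and that of Hnrnpdl 33, where the median over 27025 genes was 6. A window was listed for 29 of the 31 genes, all but Hnrnpll and Hnrnpul2, and their median was 23 CpG. A GC box was found in 23 of 29 (79.3%; 32.9% of all windows) and the CCAAT box (CCAAT, either strand) in 15 of 29 (51.7%; 34.5% of all). By family, GC boxes were in 10 of 11 SR and 13 of 18 hnRNP windows, and CCAAT boxes in 3 of 11 and 12 of 18. The ETS core was in 6 of 29 (20.7%; 7.05% of all), 4 of them SR genes, and the TATA letters (TATAAA) in 3 of 29 (10.3%; 13.0% of all). The windows of the 29 genes had a median GC content of 65.2%, against 52.0% for all windows, which include genes not tested here. The part of GC content in the motif shares was not tested. These are matches of letters and no evidence of binding.

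The annotation of these genes is rich in non-coding forms. In GENCODE M21, 22 of the 30 tested genes (73.3%) have a retained-intron transcript, beside 57.0% of the 13483 protein-coding genes tested. The 30 genes also have more annotated transcripts, a median of 7.5 against 5.0, and these shares are not adjusted for that. A transcript marked for nonsense-mediated decay is listed for 9 of 10 SR genes and 10 of 20 hnRNP genes, beside 27.7% of the protein-coding genes tested. The 19 genes with such a transcript had a median log2 fold change of 0.266, with 7 of them higher in every PE-MP library. The 11 without had a median of 0.021, with 1 higher in every PE-MP library (14.2% of all tested genes). Retained introns were split at another cut, 3 or more transcripts in place of any, so the 2 splits are not alike. The 10 genes with 3 or more such transcripts had a median of 0.150, with 2 higher in every PE-MP library. The 20 with fewer had 0.264, with 6. As 9 of 10 SR genes but 10 of 20 hnRNP genes are among the 19, the first split cannot be told apart from family. Counts per gene do not show which forms were present, and neither split was tested.

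Other genes of the splicing pathway are given by list (chows that did not overlap have the background of 14.2% higher and 11.8% lower), none of which held a gene past the threshold. A list of 14 genes held kinases of SR proteins, nuclear import receptors and Pnisr, a serine- and arginine-rich protein of another kind. In it, 4 genes were higher in every PE-MP library and 0 lower, with a median log2 fold change of 0.172. Clk2, a nuclear kinase of SR proteins, stood at 1.30, 2.30 and 1.82 CPM under normal chow and at 6.97, 4.87 and 3.51 CPM under PE-MP chow (log2 fold change 1.51 ± 0.33 SE; edgeR adjusted p = 0.135). Tnpo2, a nuclear import receptor, went from 11.7 ± 2.74 to 25.4 ± 4.07 CPM (edgeR adjusted p = 0.127). The other import receptors listed, Tnpo3 and Tnpo1, had log2 fold changes of 0.11 and -0.01 with overlapping chows (edgeR adjusted p = 0.684 and 0.981). On the lower side, Pnisr (-0.52) and Srpk2 (-0.07) had the smallest p, with overlapping chows.

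In 21 tested SR-related genes the median was 0.270, with 3 higher and 1 lower in every PE-MP library; Scaf4 (0.68 ± 0.16) and Luc7l (0.48 ± 0.15) had the smallest p on the higher side, and Srek1ip1 (-0.41 ± 0.15) and Thrap3 (-0.43 ± 0.30) on the lower. Among 13 hnRNP proteins with other symbols the median was 0.052. Cirbp, a cold-inducible RNA-binding protein, had a fold change of 0.60, and Pcbp2 and Raly had -0.22 and -0.17.

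Among 30 other regulators of alternative splicing the median was 0.310, with 4 higher and 1 lower in every PE-MP library. Rbm4b had the smallest p of all splicing genes examined, at 5.20, 6.44 and 5.28 CPM under normal chow and 16.7, 15.4 and 13.3 CPM under PE-MP chow (log2 fold change 1.42 ± 0.16 SE; edgeR adjusted p = 0.0660). Rbm5 went from 10.6 ± 4.14 to 25.5 ± 1.75 CPM (edgeR adjusted p = 0.137). Rbm47, an RNA-binding protein of liver and gut, was lower, at 30.3, 21.9 and 29.6 CPM against 4.90, 9.62 and 6.18 CPM (log2 fold change -1.99 ± 0.28 SE; edgeR adjusted p = 0.0878). Celf1 had a fold change of -0.17.

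The 42 genes of the core spliceosome had a median of -0.064, close to the 0.0182 of all tested genes. In every PE-MP library 2 were higher (4.76%, beside 14.2% of all tested genes) and 6 lower (14.3%, beside 11.8%). Snrnp70, the U1 protein that contacts SR proteins, was 37.4, 42.0 and 23.3 CPM under normal chow and 95.6, 74.4 and 82.8 CPM under PE-MP chow (log2 fold change 1.30 ± 0.23 SE; edgeR adjusted p = 0.124). Snrpd2, a ring protein common to most spliceosomal particles, was lower, from 38.5 ± 3.43 to 21.2 ± 0.684 CPM (log2 fold change -0.86 ± 0.12 SE; edgeR adjusted p = 0.0751). The next were Sf3b1 (0.38) on the higher side and Sf3b5 (-0.70) on the lower. The 16 genes of the exon junction and of nonsense-mediated decay had a median of 0.117 and none with separate chows. Smg1 stood at 0.600, 0.499 and 0.395 CPM under normal chow and at 1.97, 2.95 and 0.456 CPM under PE-MP chow. Its PE-MP library 3 lay within the normal chow range. The smallest p on the higher side were those of Smg1 and Upf2 (0.40). On the lower side they were those of Eif4a3 (-0.30) and Magoh (-0.27).

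A list of noncoding RNAs, most of them kept in the nucleus, was also higher on average in the PE-MP libraries. All 9 tested rows of that list had fold changes above 0, with a median of 1.176. Higher in every PE-MP library were 2 (22.2%, beside 14.2% of all tested genes), and 0 were lower (beside 11.8%). The 9 rows summed to 231 to 579 CPM under normal chow and 497 to 789 CPM under PE-MP chow, which overlapped. Malat1 took a mean of 249 of 360 CPM under normal chow and 436 of 631 CPM under PE-MP chow. Snhg14 stood on 2 of the 9 rows, which had the smallest p, with edgeR adjusted p of 0.204 and 0.231. Both rows were low, with means of 0.31 and 0.55 CPM under normal chow and 0.69 and 1.45 CPM under PE-MP chow. In the opposite direction, 12 of 13 mitochondrially encoded mRNAs were lower in every PE-MP library, with mt-Nd4l (-1.11) and mt-Co1 (-1.16) of smallest p and an edgeR adjusted p of 0.0599 for both. Markers of other cell types went in both directions, and no cell type marker passed the threshold (smallest edgeR adjusted p = 0.124). All 6 Kupffer cell and all 6 sinusoidal endothelial markers had fold changes above 0, beside 51.7% of all tested genes. Below 0 were 5 of 6 T and NK, 5 of 6 stellate and all 6 B and plasma cell markers, beside 48.3% of all tested genes. The sum of 6 Kupffer cell markers was 81.0 to 107 CPM under normal chow and 109 to 188 CPM under PE-MP chow, and that of 6 sinusoidal endothelial markers 85.5 to 108 and 125 to 161 CPM. For 6 B and plasma cell markers it was 19.3 to 58.6 and 6.43 to 10.3 CPM, and for 6 T and NK cell markers 3.56 to 6.01 and 2.20 to 3.68 CPM. Stellate cell markers summed to 293 to 306 and 151 to 298 CPM, cholangiocyte markers to 12.4 to 26.9 and 19.3 to 24.4 CPM, neutrophil markers to 0.666 to 0.914 and 1.88 to 1.94 CPM, and adipocyte markers to 6.66 to 17.8 and 3.55 to 5.74 CPM. The neutrophil marker Ly6g had 0 counts in every library, and 3 of 5 neutrophil and 3 of 5 adipocyte markers passed the filter on low counts. The 8 hepatocyte markers summed to 63800 to 83700 and 72700 to 80200 CPM, which overlapped. The part of any of these in the levels of SR and hnRNP genes was not tested.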

How the data were processed

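The authors deposited raw, unnormalised read counts per gene for 6 liver libraries. The submitters' processing notes name bcl2fastq and build GRCm39; how reads were aligned and counted, with which annotation and strand setting, is not given in the sources used here. The table of the whole series and the tables of single libraries held the same counts on all 56674 rows. Per the labels, the library kit keeps the strand; 16 of the 31 genes overlap another annotated gene, 12 of them on the opposite strand, and reads of such pairs may have been divided or shared.

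The main test was that of edgeR 4.0.16, run under R 4.3.3 (TMM factors, default expression filter, robust quasi-likelihood F test, two-sided, Benjamini-Hochberg over all genes). The steps were tested on simulated counts. CPM were computed from the deposited counts. Alternatives were DESeq2 1.42.0, limma-voom (limma 3.58.1), other factors (RLE, upper quartile), no filter, a filter at CPM 1, leaving out abundant or mitochondrial rows, each library in turn, a replicate block and, chosen after seeing the data, a length and GC trend (natural splines; both known for 95.0% of tested genes). Exon length, GC content and transcript types came from GENCODE M21, promoters from RefSeq, both on GRCm38.

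The genes and lists were chosen with earlier results of these data known. Values by library are given for the 4 genes of smallest p per family and direction, the one of highest mean CPM per family and, after their values were seen, Hnrnpu, Hnrnpm and Srsf10. From the other lists, Tnpo1, Tnpo3 and Malat1 are also named, after their values were seen. Of each other list, the 2 genes of smallest p per direction are named by rule. A gene that this rule would name is not reported here.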

Additional observations from a re-analysis of the deposited data

How the results depend on the processing

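No SR or hnRNP gene was called by edgeR with all 6 libraries under RLE or upper-quartile factors, without a filter, with the stricter filter, without abundant or mitochondrial rows, with the replicate block or at an adjusted p of 0.1, nor by limma-voom; DESeq2 called 3. With a library left out the count ran from 0 to 7, the 7 without normal chow library 2. Over all genes, edgeR called 1 (1 higher, 0 lower), 3 with RLE factors (2 and 1), 23 without a filter (15 and 8), 22 with the stricter filter (11 and 11), 53 at an adjusted p of 0.1 (24 and 29) and 1 to 1075 with a library left out (1075 without normal chow library 2, at most 3 without any other); DESeq2 called 1099 (558 and 541) and limma-voom 19 (7 and 12). The replicate block, which leaves fewer residual degrees of freedom, gave 0 genes past the threshold, and the median of the 30 genes was 0.216. Deviations from the chow means of same-numbered libraries correlated at 0.0496, 0.0850 and 0.183 across genes. Those of differently numbered libraries correlated at -0.184 to 0.105. Whether the numbers pair the libraries was not tested, and these values do not settle it. The median of the 30 genes ran from 0.125 (without normal chow library 1) to 0.219 (without normal chow library 3) with a library left out; it was 0.133 without PE-MP library 1. After removal of the length and GC trend the median of the 30 genes was -0.016, beside -0.078 for all genes of known length and GC content. Above 0 were then 14 of 30 genes, beside 42.5% of all those genes. Before removal it was 19 of 30, beside 51.7% of all tested genes. The sign turned for 5 (Hnrnpll -0.22, Hnrnpa2b1 -0.07, Hnrnpul1 -0.06, Srsf3 -0.03 and Srsf10, just below 0 at 0.00). Of these, only Hnrnpll lay below the median over all genes. The hnRNP median was -0.093, and the trend explained 5.58% of the variance of fold changes over genes. The SR median was 0.543 without normal chow library 2. With a library left out the hnRNP median ran from -0.009 to 0.124. Single genes that changed sign then were Hnrnpa2b1 (-0.08 to 0.51), Hnrnpul1 (-0.02 to 0.07), Srsf4 (-0.07 to 0.76), Hnrnpm (-0.51 to 0.48), Hnrnpu (-1.26 to 0.59) and Hnrnpd (-0.20 to 0.11). Under the alternatives other than the length and GC trend, 432 single-gene values kept direction and side of the threshold, 10 passed it and 8 reversed; under that trend 19 moved by less than the SD between libraries, 6 by more and 5 reversed. Upper-quartile factors gave 10 higher and 3 lower genes without overlap, in place of 8 and 5. The causes of these differences were not tested.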

Other observations

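Some neighbours of SR and hnRNP genes had counts that were close to theirs or were highest in the same library. Gatc, which encodes a subunit of a mitochondrial amidotransferase and ends beside the end of Srsf9 on the opposite strand, had nearly the same count as Srsf9 in every library: 1535, 1072 and 2087 against 1493, 1138 and 2144 in normal chow libraries 1, 2 and 3, and 1666, 1376 and 1825 against 1697, 1373 and 1809 in the PE-MP libraries. The ratio of Srsf9 to Gatc ran from 0.973 to 1.06. The annotated spans of this pair do not overlap in GENCODE M21.

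Cox20, an assembly factor of cytochrome oxidase whose span overlaps that of Hnrnpu by 1586 bases on the opposite strand, had 1121 counts in normal chow library 3, the library in which Hnrnpu was highest with 12501. In the other libraries Cox20 had 125 to 222 counts and Hnrnpu 970 to 3347, and over all libraries the ratio of Hnrnpu to Cox20 ran from 6.98 to 22.0. Gm11508, antisense to Srsf1, was higher in every PE-MP library (1.07 to 1.37 CPM, against 0.198 to 0.666 under normal chow; log2 fold change 1.37 ± 0.45 SE, edgeR adjusted p = 0.201), as Srsf1 was. With the strand setting of the counting not given, reads of such pairs cannot be told apart. These genes were named after their values were seen.

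The pseudogene row Srsf3-ps, which was not among the 31 genes, stood at 1.01 ± 0.0724 CPM under normal chow and 1.12 ± 0.241 CPM under PE-MP chow (SD, n = 3 per chow), with overlap (log2 fold change 0.14 ± 0.25 SE, edgeR adjusted p = 0.795). Srsf3 itself averaged 31.2 and 38.2 CPM.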
